A study of Mus musculus with 3 samples.

Results

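The transcription factors that give hepatocytes their identity were examined in the mouse hepatoma line Hepa1c1c7. The set held 8 genes, Hnf4a, Foxa1, Foxa2, Foxa3, Cebpa, Onecut1, Prox1 and Nr5a2, of the 22907 genes whose accession on the array had a mouse symbol. They were chosen by name as liver factors, and all of their 9 probes of 56605 gene probes were used. Hnf4a had 2 probes, each of the other genes had 1, and every probe was printed on a single spot. The cells were transfected with an empty vector, an Mst1r vector or a Slpi vector, and the 3 groups were otherwise the same cells with 1 array each, labelled from 100 ng of RNA. Mst1r is a receptor tyrosine kinase and Slpi is a secreted protease inhibitor. The vectors drive their insert from a CMV promoter, and the methods describe no selection of transfected cells, so the RNA was that of the whole culture. No group has a replicate, and no test between groups could be made.

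Hepatocyte identity rests on a small circuit of transcription factors that bind each other's promoters and share enhancers. The forkhead factors FOXA1, FOXA2 and FOXA3 open chromatin at liver genes, the nuclear receptor HNF4A and the leucine zipper factor C/EBP-alpha (Cebpa) drive the adult programme of plasma proteins and metabolism, and ONECUT1, PROX1 and NR5A2 act in liver development and in bile acid and lipid metabolism. Loss of HNF4A and C/EBP-alpha is a known feature of poorly differentiated hepatocellular tumours.

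The starts of the members were compared first, because several of these factors are known to bind the promoters of the others. RefSeq (GRCm38.p6) gave 13 windows of 300 bases, from 250 before to 50 after a start, for the 8 members. They were searched on both strands for 5 short motifs, CAAAGTCCA (HNF4), TGTTTAC (FOXA), TTGCGCAA (C/EBP), ATCAAT (ONECUT) and CAAGGTCA (NR5A). A motif was found in 3 of the 13 windows (23.1%), beside 12.8% of all windows, and these 3 are printed as the members' windows that hold letters bound by a family of the set. Capitals mark the motif, or its reverse complement where it lies on the other strand, as in the Foxa1 and Foxa2 windows.
Hnf4a, upstream start, chr2:163506607-163506906, plus strand, ONECUT motif: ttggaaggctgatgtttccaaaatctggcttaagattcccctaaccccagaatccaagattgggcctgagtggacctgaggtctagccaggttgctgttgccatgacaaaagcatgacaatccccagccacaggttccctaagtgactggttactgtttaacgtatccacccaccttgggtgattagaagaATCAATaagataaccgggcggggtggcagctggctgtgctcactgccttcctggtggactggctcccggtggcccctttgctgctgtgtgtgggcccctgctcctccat
Foxa2, upstream start, chr2:148046920-148047219, minus strand, ONECUT motif: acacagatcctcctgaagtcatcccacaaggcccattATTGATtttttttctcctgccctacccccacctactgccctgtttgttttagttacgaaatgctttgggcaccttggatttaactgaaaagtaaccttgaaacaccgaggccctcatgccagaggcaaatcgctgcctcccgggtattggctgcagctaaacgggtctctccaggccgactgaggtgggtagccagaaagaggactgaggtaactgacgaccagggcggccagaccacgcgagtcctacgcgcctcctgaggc
Foxa1, chr12:57546062-57546361, minus strand, FOXA motif: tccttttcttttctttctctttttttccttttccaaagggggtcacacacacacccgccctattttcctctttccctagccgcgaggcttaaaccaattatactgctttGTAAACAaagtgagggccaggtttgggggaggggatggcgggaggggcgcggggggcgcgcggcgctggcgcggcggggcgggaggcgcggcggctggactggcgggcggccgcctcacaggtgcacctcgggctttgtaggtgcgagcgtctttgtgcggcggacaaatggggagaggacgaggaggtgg

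At the upstream start of Hnf4a, ATCAAT began 59 bases before the start, and in the Foxa2 window its match began 213 bases before. The Foxa1 window held a FOXA motif 141 bases before its start. The downstream start of Hnf4a, the one known for use in adult liver, and both starts of Nr5a2 held none of the 5 motifs. Of all 32851 windows of this length, 7.54% held ATCAAT and 3.65% held TGTTTAC. The matches are a description of letters, and binding was not measured. No window of a member held CAAAGTCCA, TTGCGCAA or CAAGGTCA, which 0.475%, 0.183% and 1.56% of all windows held. The members also differed in CpG content, with 4 CpG in each Hnf4a window, 2 and 7 at Nr5a2, 26 at Foxa1, 29 at Cebpa and 38 at Onecut1, beside a median of 7 over all windows.

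The arrays gave a processed signal for each spot, which is the spot intensity after background subtraction, and a flag for spots well above background. A probe with that flag is called detected here, and a gene is detected when any of its probes is. Of all probes, 46.7% to 48.5% were detected, and the lowest signal of a detected probe was 16.6 to 18.9. The negative control probe was printed on 308 spots per array and had a median signal of 3.69 to 4.17. Some of these spots were bright although they have no target. In the first of 3 equal parts of the rows (the upper rows), 9 to 12 of 102 such spots were flagged on each array, and in the rest (the lower rows) this was 1 or 2 of 206. The brightest of them in the upper rows reached 94.1, 84.7 and 103 on the empty, Mst1r and Slpi vector arrays. In the lower rows the brightest reached 21.5, 35.4 and 139. Neither transfected gene checked its label on these arrays, although the paper reports Mst1r overexpression in transfected Hepa1c1c7 cells by real-time PCR. The Mst1r probe was undetected at 4.15, 4.08 and 3.70 with empty, Mst1r and Slpi vector, the order used below, and the brighter Slpi probe gave 6459, 3843 and 6680. Whether these probes lie within the coding sequences in the vectors was not known. The names of the groups below therefore mean the arrays labelled so. Of 17 hepatocyte markers, 6 (35.3%) were detected on all 3 arrays, among them albumin (Alb), and 4 on none. Of 6 cholangiocyte markers, 4 (66.7%) were detected on all 3 arrays and 2 on none. The share on all 3 arrays was also 66.7% for stellate cell and fibroblast markers, and 54.5% for all genes. The summed signal adds unlike probes and was not scaled between arrays. It was 62816, 49310 and 61302 for the hepatocyte and 31316, 19981 and 26397 for the cholangiocyte markers. Of the hepatocyte sum, Trf alone gave 48573, 35784 and 47485. With the scaling described below, the 6 hepatocyte markers on all arrays had a median log2 difference of 0.02 between Mst1r and empty vector. Their differences ranged from -0.23 to 0.57. For the 4 cholangiocyte markers the median was -0.45, with a range from -0.66 to 0.37. Between Slpi and empty vector the medians were 0.05 and -0.06.

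Of the 8 liver factors, 4 were detected on each array, and these were Foxa1, Foxa2, Onecut1 and Nr5a2 every time. Hnf4a, Cebpa, Prox1 and Foxa3 were detected on none. Over all 22907 genes, 58.5% were detected with empty vector, 57.1% with Mst1r vector, 57.9% with Slpi vector and 54.5% on all 3 arrays. A share of 4 in 8 is near that background, and the liver factors were divided between clear signal, weak signal and background.

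**Figure D1:**
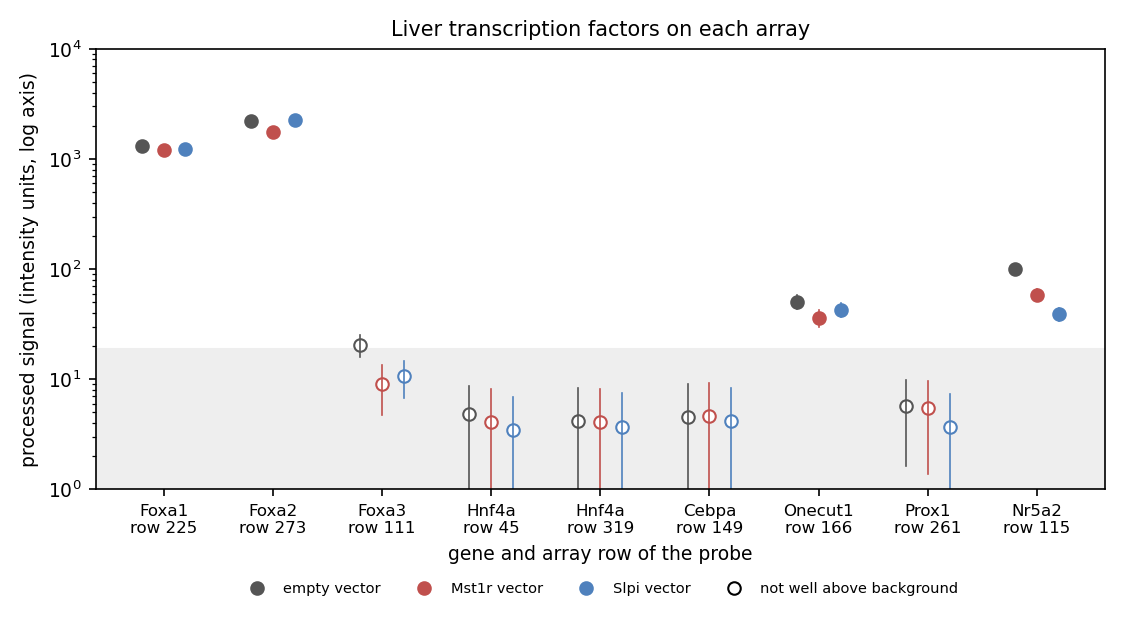
Processed signal (intensity units, log axis) of each probe of the 8 liver factors on the empty vector, Mst1r vector and Slpi vector arrays. Filled points are detected (flagged well above background), open points are not, bars are the scanner software's error of the spot (cut at 1), and the grey band ends at 18.9, the highest over arrays of the lowest detected signal. Foxa1 and Foxa2 lie between 1203 and 2279, Onecut1 and Nr5a2 between 35.9 and 99.5, and both Hnf4a probes, Cebpa and Prox1 under 6. Heights of different probes are not comparable as RNA amounts.

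Foxa1 and Foxa2, the forkhead factors that act earliest in liver development, gave clear signal on every array. The Foxa1 signal was 1314, 1203 and 1237 with empty, Mst1r and Slpi vector, at least 63.9 times the lowest detected signal on the array. The Foxa2 signal was 2200, 1773 and 2279, at least 94.2 times that signal. Both probes lay in the lower part of the arrays, in rows 225 and 273, where the negative control spots were almost all dark. Foxa3, a forkhead factor of adult liver, gave 20.5, 9.07 and 10.6. It was undetected on every array, although the software called its signal positive and significant on all 3. The FOXA family was therefore represented by Foxa1 and Foxa2 signal, with Foxa3 at the edge of detection.

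Hnf4a, which drives apolipoprotein and clotting factor genes, was at background with both of its probes. The probe in row 45 gave 4.79, 4.07 and 3.45 with empty, Mst1r and Slpi vector. The probe in row 319 gave 4.14, 4.05 and 3.72. These signals were close to the median of the negative control spots on each array, which was 4.12, 4.17 and 3.69. The probes share 1 accession, and no sequence of either was used here, so the transcript forms that they detect are not known. Whether these probes give signal in liver RNA was not analysed here.

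Cebpa, which restrains hepatocyte proliferation and drives genes of gluconeogenesis and the urea cycle, was also at background. Its probe gave 4.54, 4.63 and 4.17. Prox1, a homeobox factor needed for the early liver bud, gave 5.77, 5.50 and 3.68. The highest of these signals was 0.305 times the lowest detected signal on its array. No fold is given for Hnf4a, Cebpa, Prox1 or Foxa3, because neither side of any comparison was detected. Signal at background does not show that the RNA was absent.

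Onecut1, a factor of the early hepatocyte and biliary lineages also known as HNF6, was detected with weak signal. It gave 50.7, 35.9 and 43.0, which is 1.91 to 2.68 times the lowest detected signal. Its probe was in row 166, among the lower rows. The brightest control spots of those rows reached 21.5, 35.4 and 139 in the same order of arrays, the last above the Onecut1 signal. Nr5a2, a nuclear receptor of bile acid and cholesterol metabolism also known as LRH-1, gave 99.5, 58.5 and 39.1. It was 5.26, 3.11 and 2.36 times that lowest signal, highest with empty vector and lowest with Slpi vector. The Nr5a2 probe was in row 115, among the upper rows with bright control spots. The brightest control spots of those rows reached 94.1, 84.7 and 103 in the same order of arrays. With Mst1r and Slpi vector this was above the Nr5a2 signal. In a culture measured as a whole, fewer cells with a transcript and less of it per cell cannot be told apart.

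**Figure D2:**
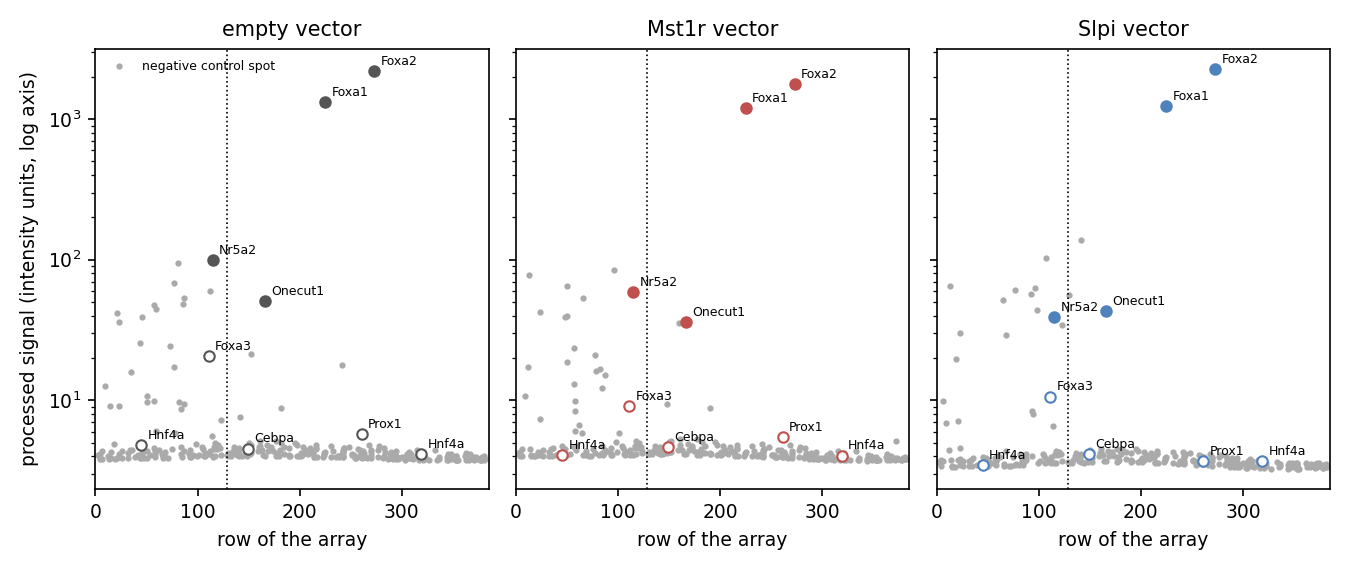
Processed signal (intensity units, log axis) against the row of the array for the 308 negative control spots (grey) and the probes of the 8 liver factors (coloured, filled when detected) on each array. The dotted line parts the upper from the lower rows. Bright control spots lie mainly to its left, where Nr5a2, Foxa3 and 1 Hnf4a probe were printed, while Foxa1, Foxa2 and Onecut1 lie to its right.

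The arrays were then compared with each other on log2 of the signal scaled to the 75th percentile of each array. The error given after a difference is the SD expected from repeated spots at that signal, and it covers no variation between cultures. It was pooled over all rows, and at the signals of Onecut1 and Nr5a2 it came from 16 or 29 sets of repeated spots. For Foxa1 and Foxa2 it was smaller than the scanner software's own error, an SD of 0.20. The differences of Mst1r and of Slpi vector from empty vector share the empty vector array. A gene was counted as apart when it differed at least 2-fold and its brighter signal was over 50.

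Between Mst1r and empty vector, none of the 8 liver factors was 2-fold higher or lower, and over all 45622 features 1.73% were higher and 1.36% lower. At 10-fold this was 0 members beside 0.64% and 0.699% of features. The difference was 0.10 ± 0.12 for Foxa1, -0.08 ± 0.12 for Foxa2 and -0.27 ± 0.46 for Onecut1, each within the spread of spots. For Nr5a2 it was -0.54 ± 0.37, which is 1.45-fold lower with Mst1r vector. The median of these 4 differences was -0.17, beside -0.03 over the 19238 features detected on all arrays.

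Between Slpi and empty vector, 1 of the 8 liver factors was at least 2-fold lower, which was Nr5a2, and 1.27% of all features were. None was higher, beside 1.07% of all features. None was 10-fold apart, beside 0.528% higher and 0.682% lower. The difference of Nr5a2 was -1.27 ± 0.37, or 2.41-fold lower with Slpi vector, and the scanner software's own error gave an SD of 0.25 for it. Foxa1 (-0.01 ± 0.12) and Onecut1 (-0.16 ± 0.46) differed by less than the spread of spots, and Foxa2 by slightly more (0.13 ± 0.12). The median of the 4 differences was -0.08, beside -3.51e-05 over all detected features.

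Between Mst1r and Slpi vector no liver factor was 2-fold apart, beside 1.64% of all features higher and 1.06% lower with Mst1r vector. At 10-fold it was 0 members as well, beside 0.614% and 0.572%. Nr5a2 was 1.66-fold higher with Mst1r vector, at 0.73 ± 0.46, and at 1.5-fold it was the only member called, beside 2.78% of features higher and 1.76% lower. Foxa2 differed by -0.21 ± 0.12, with an SD of 0.20 from the scanner software's error. The difference of Foxa2 ranged from -0.36 with no scaling to -0.07 when each spot was centred on its neighbourhood, an alternative chosen after seeing the data. Foxa1 (0.11 ± 0.12) and Onecut1 (-0.11 ± 0.46) lay within the spread of spots. The sign of at least 1 difference each of Foxa1, Foxa2 and Onecut1 changed with the processing, so no direction is given for them.

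**Figure D3:**
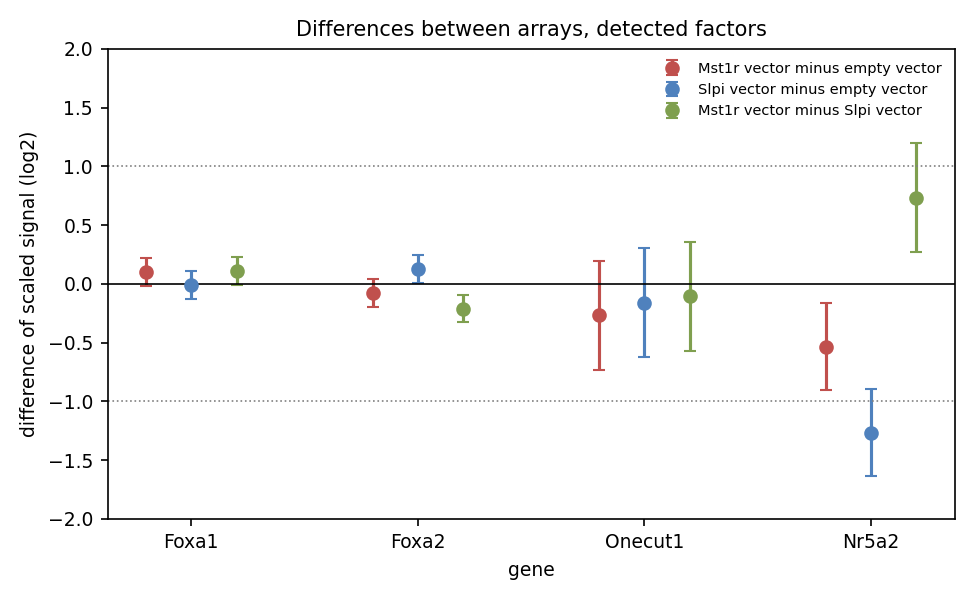
Difference of scaled signal (log2) between arrays for the 4 liver factors detected on all 3 arrays. Bars are the SD from repeated spots of 1 array at the same signal, not between cultures, and dotted lines mark 2-fold. The Nr5a2 difference between Slpi and empty vector, at -1.27, is the only point beyond a dotted line.

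The drop of Nr5a2 rests on 1 spot per array, and such differences were more frequent in the part of the array that holds it. Among features detected on all arrays whose mean signal over the arrays had a log2 of 5 to 7, 2.08% were at least 2-fold lower with Slpi than with empty vector. This was 5.73% (93 of 1624) in the upper rows, which hold the Nr5a2 spot, and 0.191% (6 of 3147) in the lower rows. Of the gene spots in the upper rows that were dark (under 15) on both other arrays, 4.43%, 3.57% and 3.35% were over 50 on the empty, Mst1r and Slpi vector array, and in the lower rows these shares were 0.042%, 0.107% and 0.049%. Around Nr5a2, within 2 rows and columns, 0, 1 and 0 of 23 gene spots were over 50 on 1 array and dark on the others, in the same order of arrays. The median difference of the 50 spots detected on all arrays within 5 rows and columns was -0.0013 between Slpi and empty vector, with quartiles of -0.08 and 0.04. The part of stray signal in the Nr5a2 difference was not tested. With normexp background correction at an offset of 50 together with quantile normalization the difference was -0.66 and under 2-fold, and with quantile normalization alone it was -1.21.

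The pattern of each detected member over the 3 arrays was set beside those of 12454 other genes with a symbol detected on all arrays, by the distance between their log2 differences from empty vector. For Nr5a2 the nearest were Zfp935 (distance 0.087), Mdh1b (0.17) and Celsr2 (0.18), and 28 genes (0.225%) lay within the error of spots. Zfp935 and Celsr2 were in rows 89 and 66, among the upper rows with stray spots, as Nr5a2 was. Mdh1b was in row 177 with weak signals of 55.4, 34.9 and 24.0. The nearest to Foxa1 were Adgrg1, Gm773 and Irak4, those to Foxa2 were Snf8, Phtf1 and Pwwp3a, and those to Onecut1 were Iba57, Marchf9 and Soat1. Within the error of spots lay 30.4% of the genes for Foxa1, 31.4% for Foxa2 and 89.9% for Onecut1. With 3 arrays the patterns of Foxa1, Foxa2 and Onecut1 were thus not distinct from those of many genes. The error used was that of the member alone, 0.17 for Foxa1 and Foxa2, 0.66 for Onecut1 and 0.52 for Nr5a2. The shares are therefore not comparable between members. Nr5a2 was the member furthest from empty vector, and its small share follows from that and is no further result.

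The remaining liver factors were counted from a list of 32 genes. Of these, 24 were detected with empty vector, 22 with Mst1r vector, 23 with Slpi vector and 22 (68.8%) on all 3 arrays. Over all genes, 54.5% were detected on all 3 arrays. Hhex, a homeobox factor of the liver bud, gave 287, 147 and 264, and the bile acid receptor Nr1h4 (FXR) gave 437, 353 and 429. Nr0b2 (SHP), a repressor induced by that receptor, was at background with 6.84, 4.27 and 6.94. In all, 8 of the 32 genes were detected on no array, as were 4 of the 8 members.

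In that list, 2 genes were at least 2-fold apart in some comparison. Cebpd, the acute phase member of the C/EBP family, gave 878, 2646 and 787, high with Mst1r vector alone. It was 1.82 ± 0.14 higher on the log2 scale with Mst1r than with empty vector and 1.90 ± 0.14 higher than with Slpi vector, and its probe was in row 196. Nr1i2 (PXR), a xenobiotic receptor, gave 97.2 with empty vector and was undetected with Mst1r (4.06) or Slpi vector (3.44), at least 4.40-fold and 5.56-fold lower. Its probe lay in row 18, among the upper rows with stray spots on the empty vector array. Over the 22 genes the median difference was -0.01 for Mst1r and 0.04 for Slpi against empty vector.

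**Figure D4:**
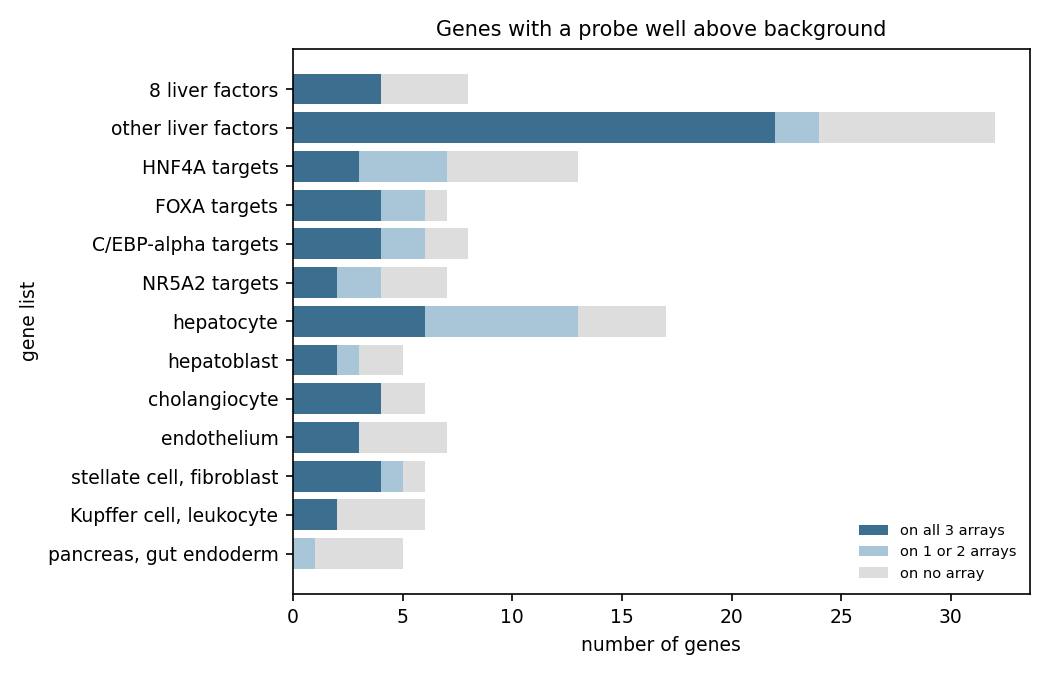
Number of genes in each list with a detected probe on all 3 arrays, on 1 or 2 arrays or on no array. The lists are the 8 liver factors, other liver factors, known targets of 4 of the factors and markers of cell types. Of the HNF4A targets 3 of 13 are on all arrays, and of the other liver factors 22 of 32, beside 54.5% of all genes.

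Known targets of the factors were counted as well. Of 13 genes known as HNF4A targets, 3 (23.1%) were detected on all 3 arrays and 6 on none, beside 54.5% of all genes on all arrays. Apob, the structural protein of VLDL, was at background with both probes, the brighter of which gave 4.33, 4.35 and 3.98. Apoa1, the main protein of HDL, was detected with Slpi vector alone, at 4.83, 9.64 and 43.1. Apoa2, another HDL protein, was detected on all 3 arrays, and its brighter probe gave 2631, 2196 and 2591. Apoc3, an inhibitor of lipoprotein clearance, had 1 of 3 probes detected, at 52.1, 48.1 and 43.4.

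Of 7 genes known as FOXA targets, 4 (57.1%) were detected on all 3 arrays, near the 54.5% of all genes. Tat, a tyrosine-degrading enzyme, gave 46.1, 41.4 and 77.0 with empty, Mst1r and Slpi vector. Ttr, a thyroid hormone carrier, was detected with 1 of 2 probes, on the Mst1r and Slpi vector arrays alone, at 9.60, 26.4 and 22.9. Igfbp1, an insulin-like growth factor binding protein, gave weak signals of 14.6, 32.2 and 24.1 and was undetected with empty vector. Pck1, the gluconeogenic enzyme that is listed for both FOXA and C/EBP-alpha, was at background with 4.10, 4.13 and 3.73. Of 8 genes known as C/EBP-alpha targets, 4 (50%) were also detected on all 3 arrays, again near that share. The brighter Alb probe gave 5083, 6449 and 4966, and G6pc, which releases glucose, gave 16.2, 22.1 and 15.6 and was detected with Mst1r vector alone. Alb, Tat and Pck1 count for both lists. Ttr counts for the HNF4A list as well, and Cyp7a1 and Cyp8b1 count for the HNF4A and NR5A2 lists. The lists are therefore not independent. The detected Apoc3, Tat and Ttr probes lay in rows 40, 4 and 28, among the upper rows with stray spots.

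NR5A2 had 7 listed targets, of which 2 (28.6%) were detected on all 3 arrays, beside 54.5% of all genes, and 3 on none. Cyp7a1, the rate-limiting enzyme of bile acid synthesis, gave 4.62, 7.68 and 4.19, and the sterol transporter Abcg5 gave 4.39, 4.44 and 3.94. Cyp8b1, the sterol 12-hydroxylase, gave 75.8 with empty vector and was at background with Mst1r (4.04) and Slpi vector (4.26). It was at least 3.43-fold lower with Mst1r and 4.34-fold lower with Slpi vector, and its spot lay in row 8, among the rows with stray spots. The bile salt pump Abcb11 was detected with Slpi vector alone, at 4.39, 4.49 and 100.0, from a spot in row 103, also among the upper rows. Both of these spots were over 50 on 1 array and dark on the others, as were 4.43% of such spots in the upper rows of the empty vector array and 3.35% of those of the Slpi vector array. The part of stray signal in them was not tested.

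The relatives of the members in the same protein families were also listed, chosen after values of these data had been seen. Besides the members the 6 families held 10 genes, and 7 were detected on all 3 arrays and 3 on none, beside 54.5% of all genes detected on all 3. Prox2 was among the 7 through a probe of a predicted transcript alone, with weak signals of 44.0, 38.9 and 35.2. The other Prox2 probe was at background with 4.84, 4.90 and 4.39. Hnf4g, the closest relative of Hnf4a, gave 16.4, 15.4 and 15.4 and was undetected. In the C/EBP family Cebpa and Cebpe were at background, while Cebpb gave 7838, 7153 and 7042. Ddit3 (CHOP), the stress-induced member, gave 1182, 1524 and 1083, and differed by 0.60 ± 0.12 between Mst1r and empty vector. Onecut2 gave 539, 515 and 474 and Onecut3 was at background. Nr5a1, the steroidogenic relative of Nr5a2, gave 96.2, 89.6 and 88.2. Unlike Nr5a2, Nr5a1 differed from empty vector by less than the spread of spots, at 0.13 ± 0.24 with Mst1r and -0.05 ± 0.24 with Slpi vector. Its probe was in row 217, among the lower rows, and that of Nr5a2 in row 115, among the upper rows with stray spots. The difference between both genes was not tested.

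**Figure D5:**
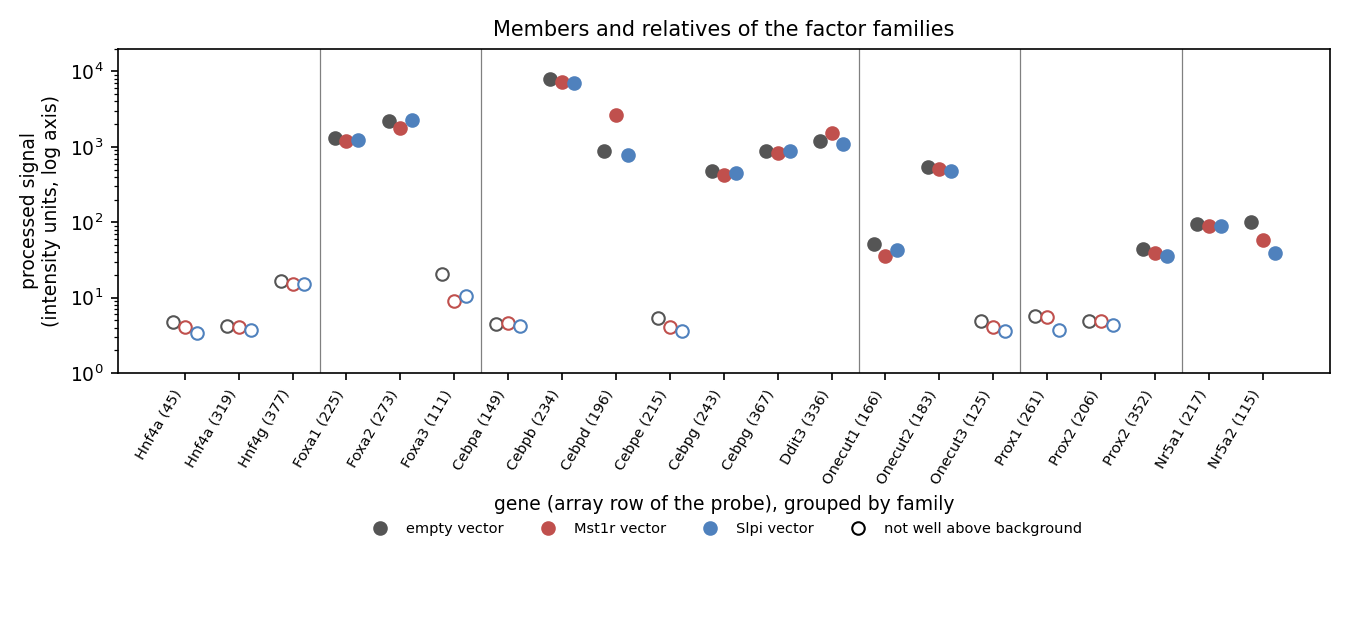
Processed signal (intensity units, log axis) of each probe of the HNF4, FOXA, C/EBP, ONECUT, PROX and NR5A families on the 3 arrays, with the array row in brackets and filled points for detected signal. Cebpd on the Mst1r vector array, at 2646, stands above its points on the other arrays, and Hnf4a and Hnf4g have open points throughout. Heights of different probes are not comparable as RNA amounts.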

How the data were processed

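Gene expression was measured in 3 cultures of Hepa1c1c7 cells, 1 array per group, and groups were taken from the labels. The authors deposited the intensity of every spot, extracted according to the file headers with Agilent Feature Extraction 12.0.3.1, a later version than the methods name, from single-colour Agilent arrays of a design on mm9. The processed signal is linear, background-subtracted and without scaling between arrays. A deposited value table held the same intensities, within 0.01 (log2) of the probe means for 100% of values.

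For each probe the mean log2 processed signal of its spots was taken, and the 75th percentile over gene probes of the array was subtracted, as in the methods. Probes were named through accessions and a RefSeq table (GRCm38.p6, used for names), which matched 25122 of 47837 accessions. A gene was represented by its brightest probe and called undetected only if all its probes were. Genes were counted at 2-fold with a brighter signal over 50, the minimum of the methods. With 1 array per group no test was made, and the number of arrays limits the precision. No spot was saturated. The error was the SD between spots of probes printed at least 10 times on 1 array, by signal level, added in squares over both arrays. Where 1 side only was above background, the fold was a bound against the higher of the dim signal and the lowest signal well above background on its array. All arrays shared 1 slide, where position and group cannot be told apart.

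The text names all members, the other liver factors at least 2-fold apart or known as central, and the first 4 targets of each list, with Abcb11 added after its values were seen. Some factors under this rule are not reported here. The members and lists were chosen with earlier results of these data known. Alternatives changed the scaling, the background correction and normalization (limma 3.58.1 in R 4.3.3), the detection rule, the fold and the rows used. Python 3.11.15 with numpy 2.4.6 and pandas 2.3.3 was used, and the calculation was tested on simulated data.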

Additional observations from a re-analysis of the deposited data

How the results depend on the processing

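Of 51 counts of members under the alternatives, 39 were identical to the count reported. Of 117 log2 differences, 102 moved by less than the spread of spots. Some of these values could not move. The detected members have 1 probe each, so the mean over probes gave the same differences. The lower rows alone and the deposited values left the differences of the spots they kept nearly the same. These settings are therefore no check of the differences. The count of members at least 2-fold apart between Slpi and empty vector fell from 1 to 0 with normexp at an offset of 50 together with quantile normalization (Nr5a2 at -0.66, beside -1.21 with quantile normalization alone), with the lower rows alone (which leave out the Nr5a2 spot) and at 10-fold. Between Mst1r and Slpi vector it rose from 0 to 1 at 1.5-fold, with Nr5a2. The 10-fold and 1.5-fold counts were chosen after seeing the data. When a positive and significant signal was enough, the members above background rose from 4 to 7, 6 and 5 with empty, Mst1r and Slpi vector, with Foxa3 added on all 3 arrays, Prox1 with empty and Mst1r vector and Hnf4a with empty vector. When a signal over 50 was needed they were 4, 3 and 2, and in the lower rows alone 3 on each array. Nr5a2 was lower with Slpi than with empty vector in all 10 settings that kept its spot, from -1.51 to -0.66. These 10 include the main setting and those that could not move this difference. Foxa1 ranged from -0.25 to 0.16 and Foxa2 from -0.11 to 0.29 in that comparison. The scaling moved the median of features above background from -0.03 to -0.26 (Mst1r vector, no scaling) and from near 0 to 0.17 (Slpi vector, median scaling) or -0.24 (Slpi vector, spike-in scaling). No paired analysis was possible because each group had 1 array and the labels carry no replicate numbers. Differences between signals near background have a spot SD of about 0.98 (log2), which limits what can be said of Hnf4a, Cebpa, Prox1 and Foxa3.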

Other observations

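Hnf4aos, the antisense neighbour of Hnf4a, was looked at after the values of Hnf4a had been seen. Its signal was 29.2, 16.2 and 20.9 with empty, Mst1r and Slpi vector, and only the first of these was detected. Of 5 hepatoblast markers, Afp (19822, 16911 and 18850) and Gpc3 were detected on all 3 arrays, Igf2 on the empty and Slpi vector arrays, and Dlk1 and H19 on none. The share on all 3 arrays was 40%, beside 54.5% of all genes. Of the cholangiocyte markers, Krt7 gave 13189, 7963 and 13233 and differed by -0.50 ± 0.14 (log2, spot SD) between Mst1r and empty vector, Spp1 by -0.39 ± 0.11, Krt19 by -0.66 ± 0.75 and the brighter Sox9 probe by 0.37 ± 0.16, so the list had no common direction. Tdo2, a tryptophan-degrading enzyme, gave 23.8, 53.5 and 22.6 from a spot in row 22, 2.64-fold higher with Mst1r than with empty vector, or 1.40 ± 0.75 on the log2 scale. These genes were chosen after their values were seen.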
